A study of Mus musculus with 8 samples.

Results

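The genes described here encode the subunits of the receptors for glutamate and GABA, the main excitatory and inhibitory transmitters of the forebrain. They were taken as the protein-coding rows of the deposited table whose symbol belongs to the families Gria, Grin, Grik, Grid, Grm, Gabra, Gabrb, Gabrg, Gabrd, Gabre, Gabrq or Gabbr. By this rule 35 of the 16913 genes in the table were members: 22 glutamate receptor genes and 13 GABA receptor genes. GENCODE M21 holds 43 protein-coding genes under these symbols, and 8 of these (Gabra6, Gabrb1, Gabrd, Gabrg3, Grin2a, Grin2c, Grm3 and Grm6) were not analysed here. The rule uses no measured value, although the family was chosen with earlier results of these data known.

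RNA was sequenced from the lateral ganglionic eminence (LGE), the embryonic structure that forms the striatum, of mouse embryos (C57BL/6J and CD1, mixed) at embryonic day 14.5. The 4 control samples came from littermates of the genotype Dlx5/6-Cre;Meis2F/+, and the 4 Meis2-CKO samples had the genotype Dlx5/6-Cre;Meis2F/F. All 8 samples therefore carried the Dlx5/6-Cre driver and at least 1 floxed allele of Meis2, a homeodomain transcription factor gene, and the control is not a wild type. Recombination is limited to the Dlx5/6 lineage, so cells of other lineages in the dissected tissue keep Meis2. The question is how the receptor genes stood in the LGE with both Meis2 alleles open to recombination in that lineage, beside 1 in control.

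Ionotropic glutamate receptors are tetrameric cation channels. AMPA receptors carry fast excitation, NMDA receptors need glutamate together with glycine or D-serine and pass calcium, and kainate receptors act on both sides of the synapse. Metabotropic glutamate receptors signal through G proteins. GABA-A receptors are pentameric chloride channels, usually of alpha, beta and gamma subunits, and GABA-B receptors are G protein-coupled heterodimers. In the embryonic forebrain many of these genes are active before synapses form, and GABA can depolarize young neurons because their chloride is high.

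The authors' deposited table gives 1 mean expression signal per genotype for each gene, together with a log2 fold change (knockout relative to control) and a p-value. Columns of single libraries matched no sample label and were not used, so none of the values below has an error across embryos. How deeply the libraries were sequenced is unknown. The unit of the signal is not named. Its median over protein-coding genes in control was 9.18 in the shortest of 5 bins by exon length and 14.2 in the longest, and levels of different genes are compared below as if scaled by length. Meis2 itself (chromosome 2, 115863064 to 116065839, GRCm38) fell by 0.53 (log2) according to the authors' deposited table, with means of 204 (control) and 140 (knockout; adjusted p = 0.00195). All 12 LGE and striatal markers looked for were present, and 4 of them (Isl1, Ebf1, Foxp1 and Bcl11b) were lower at the threshold. In all 8 of the 12 lay below 0 and 4 above, namely Dlx1, Dlx2, Dlx5 and Gsx2. The summed signal of the 12 was 1026 in control and 1045 in the knockout, which hides opposite directions. Dlx1, the highest of them, stood at 393 and 496, while Isl1 stood at 57.9 and 12.5 and Ebf1 at 21.3 and 3.75. Of 4 astrocyte markers, Gfap and Aqp4 were not analysed here, and Aldh1l1 (22.1 in control, 24.7 in the knockout) and Gja1 (8.53 and 10.3) had the higher mean in the knockout, without passing, by the authors' deposited table.

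No receptor subunit gene passed the test. By the authors' deposited table, the number of members called at an adjusted p of 0.05 was 0 of 35, beside 0.78% of all genes (132 of 16913) and 0.344% of protein-coding genes (47 of 13643). At an unadjusted p under 0.05 it was also 0 of 35, beside 2.17% of all genes, a share not taken over protein-coding genes alone. With 35 members a share near the background gives less than 1 call, so the count does not set the receptor genes apart. The tool that made the deposited p-values is unknown here. Unadjusted p-values of the members ran from 0.219 (Grm5) to 0.974 (Grm7), with a median of 0.720, beside 0.765 for protein-coding genes. Each adjusted p of a member was 0.999987. Over the table as a whole the deposited unadjusted p-values leaned toward the upper end of their range. Their median over protein-coding genes, 0.765, lay above the middle of that range. The share of all genes under 0.05, 2.17%, was smaller than evenly spread p-values would give. The count of 0 of 35 and the large p-values of members therefore say little about the receptor genes themselves.

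Most members nevertheless had the lower mean in the knockout. By the authors' deposited table, 24 of 35 had a log2 fold change below 0, beside 46.1% of protein-coding genes. Among the 27 members whose higher mean was at least 1, 21 lay below 0 and the median log2 fold change was -0.18, beside 45.3% below 0 and a median of 0.01 for 12204 protein-coding genes under the same minimum. These counts describe the deposited means and carry no test, and members of 1 family are not independent of one another. In bulk tissue fewer cells of a type and less RNA per cell cannot be told apart.

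**Figure D1:**
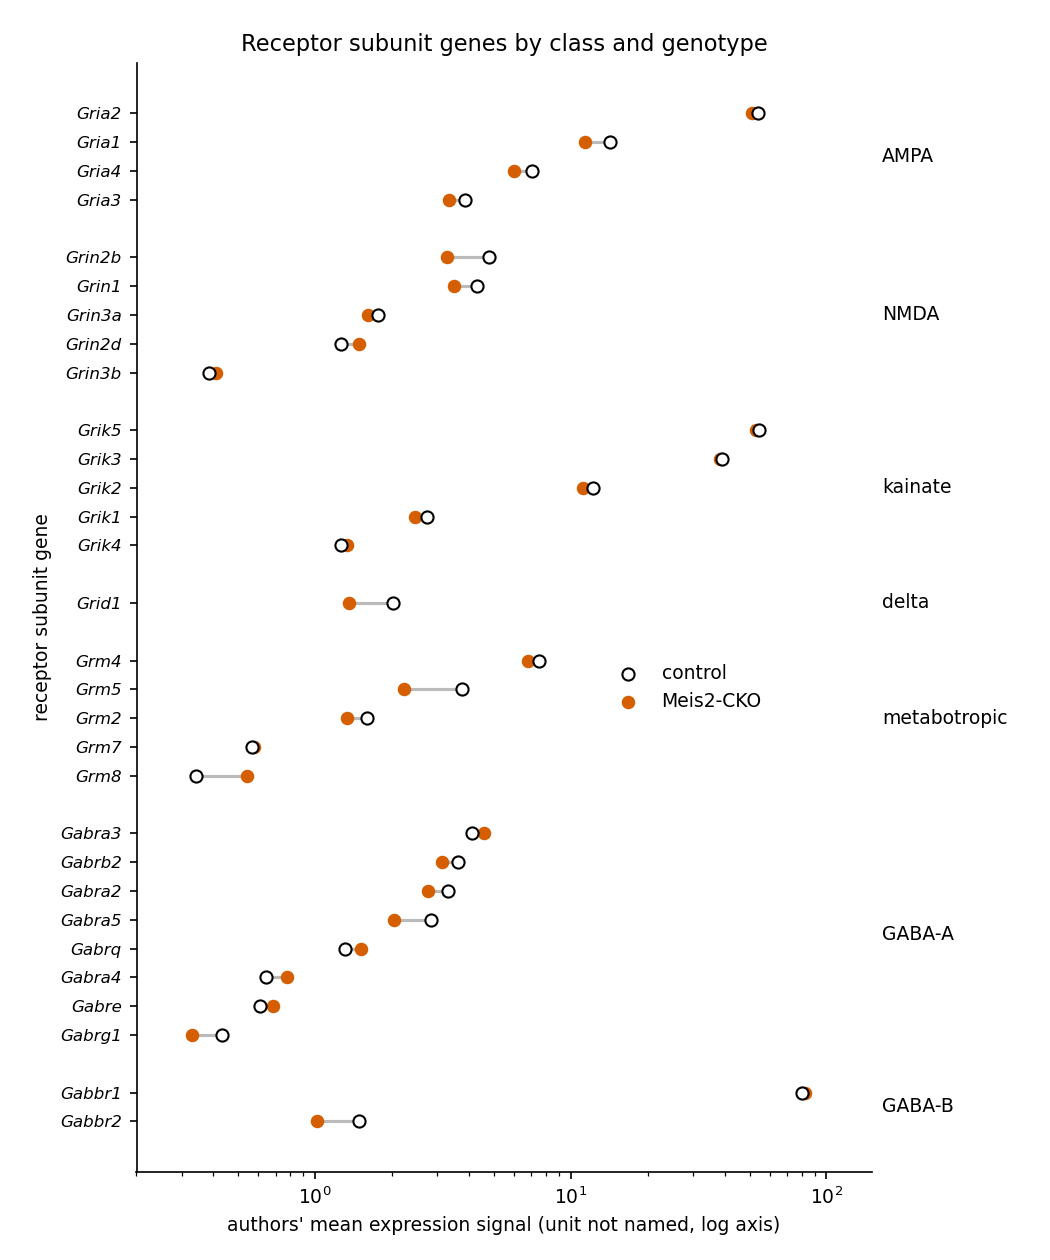
Authors' mean expression signal (log axis, unit not named) of 30 receptor subunit genes in control (open circles) and Meis2-CKO (filled circles), by receptor class; each point is 1 deposited mean with no error. Gabbr1, Grik5 and Gria2 had the highest control means, and for 20 genes the filled circle lies to the left.

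Of the AMPA receptor genes, Gria2 had by far the highest signal. It encodes the subunit that makes the channel impermeable to calcium once its transcript is edited. Gria2 (chromosome 3, 80681450 to 80802835) stood at 54.0 in control and 51.3 in the knockout by the authors' deposited table, a log2 fold change of -0.06. Gria1 (chromosome 11), whose subunit is known for activity-dependent insertion at synapses, stood at 14.2 in control and 11.3 in the knockout by the authors' deposited table (log2 change -0.31, unadjusted p = 0.271). Gria4 stood at 7.08 and 6.00 and the X-linked Gria3 at 3.85 and 3.35, in the same order in the authors' deposited table. All 4 had the lower mean in Meis2-CKO. Gria2 made up 68.2% of the summed AMPA signal in control and 71.3% in Meis2-CKO, and Gria1 18.0% and 15.7%. The signal sums over all transcripts of a gene and says nothing of editing or splice form.

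The NMDA receptor genes were at low levels. Grin1, the obligatory subunit that binds glycine, stood at 4.30 in control and 3.48 in the knockout by the authors' deposited table (log2 change -0.28). Grin2b, the glutamate-binding subunit that prevails before birth, stood at 4.81 in control and 3.29 in the knockout by the authors' deposited table (log2 change -0.52, unadjusted p = 0.297). Grin2d, the other glutamate-binding subunit typical of the embryo, lay the other way, at 1.26 in control and 1.49 in the knockout by the authors' deposited table (log2 change 0.23, unadjusted p = 0.773). The ratio of Grin2b to Grin2d was thus 3.81 in control and 2.21 in Meis2-CKO, from means of genes that did not pass the test. Grin3a, which lowers calcium permeability, was at 1.76 and 1.61 by the authors' deposited table. Grin3b stood at 0.385 and 0.408 there, but 32.1% of its exon bases also belong to Tmem259 on the opposite strand, a gene at 56.8 and 55.4. Whether the counting used strand is unknown, so reads of such pairs cannot be told apart. This also holds for 13.5% of the exon bases of Grin1 (Grin1os) and 9.66% of those of Grin2d (Gm45441). Among the metabotropic genes it holds for 9.60% of the exon bases of Grm2 (Gm28111). Unlike Tmem259, Grin1os, Gm45441 and Gm28111 have no value in the deposited table, so their levels are unknown.

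Kainate receptor genes had the largest summed signal of the glutamate receptor classes, 109.8 in control and 106.3 in Meis2-CKO. Grik5, which encodes a high-affinity subunit that needs a low-affinity partner to form a channel, stood at 54.5 in control and 52.9 in the knockout by the authors' deposited table (log2 change -0.03). Its possible partners differed widely in level. Grik3 stood at 39.1 and 38.4 and Grik2 at 12.2 and 11.2, control before Meis2-CKO, in the authors' deposited table. Grik1, with the lowest log2 change of the class, stood at 2.74 and 2.46 by the authors' deposited table (log2 change -0.14), and Grik4, the other high-affinity subunit gene, at 1.27 and 1.34 (log2 change 0.08). The make-up of the class was close to the same in both genotypes: Grik5 held 49.6% and 49.8% of the sum, and Grik3 35.7% and 36.1%.

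Grid1 encodes a delta receptor, a relative of the ionotropic receptors that binds cerebellin at synapses rather than opening to glutamate. Grid1 stood at 2.02 in control and 1.35 in the knockout by the authors' deposited table (log2 change -0.53, unadjusted p = 0.477).

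Metabotropic glutamate receptors fall into 3 groups by sequence and signalling. Grm5, of the group coupled to phospholipase C and abundant in mature striatal projection neurons, had the smallest p-value of all members. It stood at 3.75 in control and 2.23 in the knockout by the authors' deposited table (log2 change -0.71, unadjusted p = 0.219). The groups that inhibit adenylate cyclase were led by Grm4, at 7.48 in control and 6.79 in the knockout by the authors' deposited table (log2 change -0.13). Grm2 stood at 1.60 and 1.33, Grm7 at 0.565 and 0.578, and Grm8 at 0.343 and 0.540, control before Meis2-CKO, in the authors' deposited table. Grm8 had the largest positive log2 fold change of the members (0.52), at a level where both means lay under 1.

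The GABA-A receptor genes described here were at low levels. Gabra3, the alpha subunit gene with the highest control mean among them, stood at 4.09 in control and 4.58 in the knockout by the authors' deposited table (log2 change 0.17). Gabra2 stood at 3.32 and 2.75 and Gabra5, whose subunit is known from receptors outside synapses, at 2.85 and 2.03 (log2 change -0.45, unadjusted p = 0.471), both by the authors' deposited table. Gabra4 stood at 0.643 and 0.773 there. The order of these alpha genes was thus the same in both genotypes. The beta subunit gene Gabrb2 stood at 3.61 and 3.12 by the authors' deposited table (log2 change -0.19). Gabrq was at 1.31 and 1.52, Gabre at 0.608 and 0.683, and Gabrg1 at 0.433 and 0.330. Of the 11 GABA-A genes 7 had the lower mean in the knockout.

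GABA-A genes lie in clusters in the GRCm38 genome. On chromosome 5, Gabrg1, Gabra2 and Gabra4 lie within 907.3 kb (70751047 to 71658308), and the highest control mean was 7.67-fold the lowest. The X-linked cluster of Gabre, Gabra3 and Gabrq (72255999 to 72842602) had no gene with the lower mean in the knockout, with log2 fold changes of 0.15, 0.17 and 0.21 in the authors' deposited table. The genotype means also differed in sex-linked RNA: by the authors' deposited table Xist had means of 78.0 for control and 256 for the knockout, and the Y-linked Eif2s3y of 50.5 and 14.0. By the deposited adjusted p, Eif2s3y was called (1.02e-16) and Xist was not (0.985). The Y-linked Ddx3y (14.1 in control, 4.03 in the knockout) and Kdm5d (13.05 and 4.09) were also called, at 0.000279 and 0.00202. The Y-linked Uty was lower too (6.60 and 2.36) but was not called (0.387). The labels give no sex, and the part of sex in these values was not tested. Of the 31 autosomal members 23 lay below 0, and of the 4 X-linked members 1 did (Gria3).

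The GABA-B receptor genes were far apart in level. Gabbr1, which binds the ligand, had the highest control mean of all members, 80.4 in control and 82.4 in the knockout by the authors' deposited table (log2 change 0.05, unadjusted p = 0.686). Gabbr2, which couples to the G protein and brings the dimer to the surface, stood at 1.48 and 1.02 by the authors' deposited table (log2 change -0.48, unadjusted p = 0.566). The control mean of Gabbr1 was 54.4-fold that of Gabbr2, and the ratio in Meis2-CKO was 81.2, although the functional receptor holds 1 of each.

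**Figure D2:**
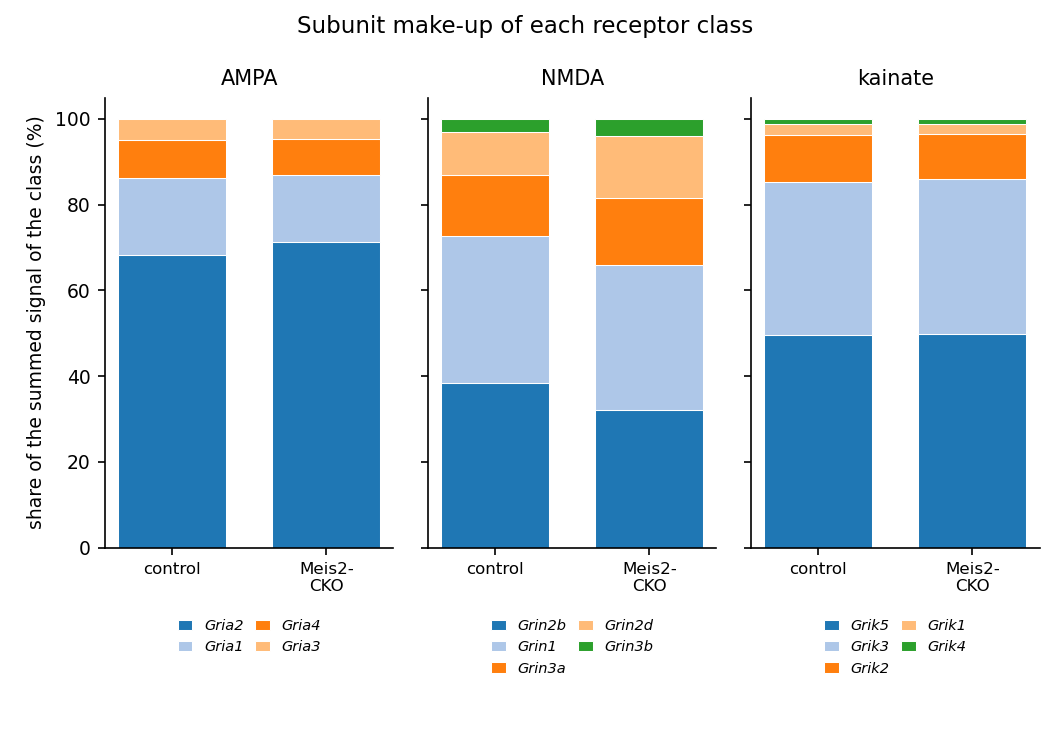
Share (%) of each gene in the summed signal of its receptor class in control and Meis2-CKO for the AMPA, NMDA and kainate classes; bars stack the authors' deposited means and carry no error. Gria2 held 68.2% and 71.3% of the AMPA sum, while the share of Grin2b in the NMDA sum was 38.4% and 32.01%.

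Summed within a class, the signal was 79.1 in control against 71.97 in the knockout for AMPA genes, 12.5 and 10.3 for NMDA genes, 45.3 and 38.6 for GABA-A genes, and 81.9 and 83.5 for GABA-B genes. The 22 glutamate receptor genes had 16 members below 0 and a median log2 fold change of -0.12, and the 13 GABA receptor genes 8 below 0 and a median of -0.25. Whether classes differ from each other was not tested.

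**Figure D3:**
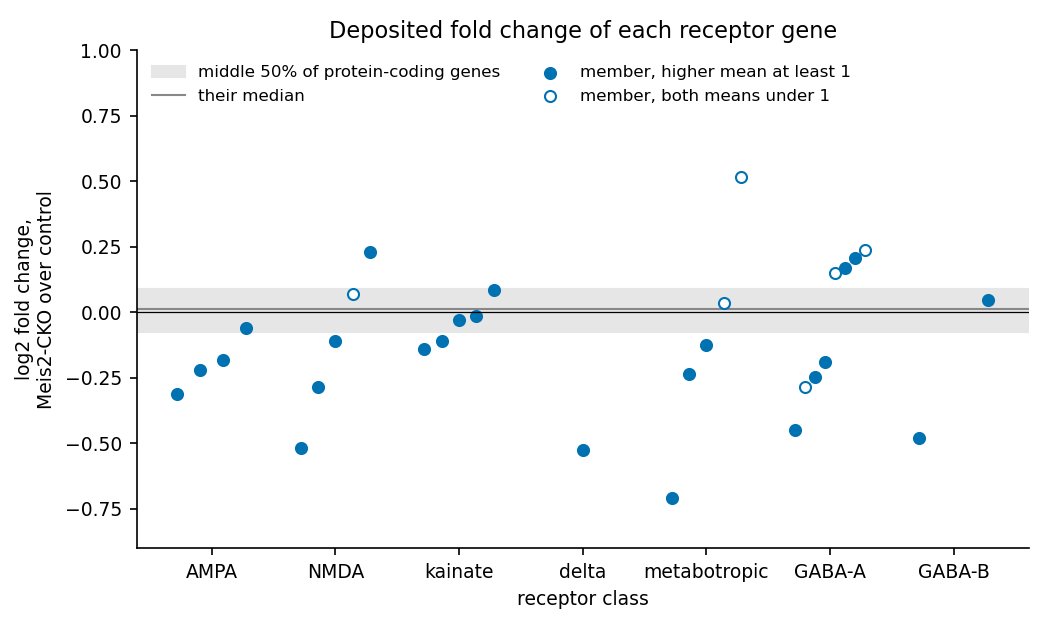
Deposited log2 fold change (Meis2-CKO over control) of 30 receptor genes by class; filled points have a higher mean of at least 1, open points have both means under 1, and the grey band spans the middle 50% of protein-coding genes with a higher mean of at least 1. All AMPA genes lie below 0, and the outermost points are Grm5 at -0.71 and Grm8 at 0.52.

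What the deposited p-values called depended on the level, and most receptor genes lay where few genes of any kind were called. At a higher mean of 1 to under 5, which held 17 members, 3 of 2635 protein-coding genes were called in the authors' deposited table and the smallest called change was 7.53-fold. The largest change of a member in that range was 1.63-fold (Grm5). At 5 to under 20, with 6 members, 19 of 4440 were called and the smallest called change was 2.52-fold. Under 1, down to 0.1, 0 of 1439 were called, so none of the 8 members there stood in a range with calls. At 20 to under 100, with 4 members, changes as small as 1.42-fold were called in the authors' deposited table, and the largest change of a member was 1.04-fold (Gria2). In each range with calls the largest change of a member was smaller than the smallest change called. Because no member was called, this comparison is no support beyond the count of 0 of 35. The smallest change called depends on which genes changed and is no limit of detection. The 4 members at 20 to under 100 were Gabbr1, Grik5, Gria2 and Grik3.

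**Figure D4:**
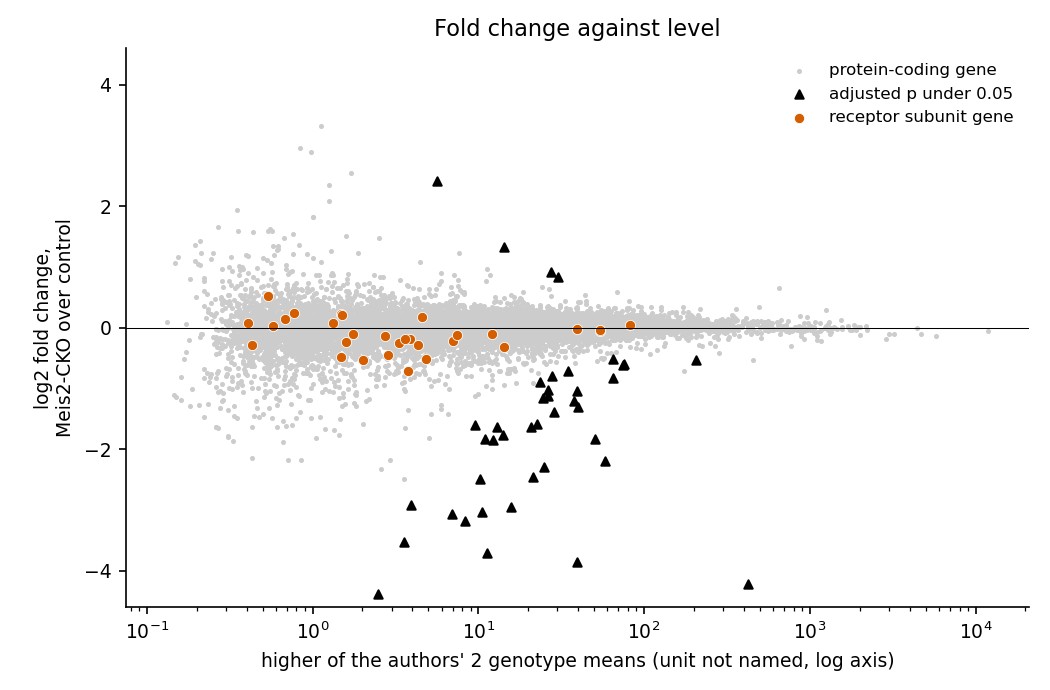
Deposited log2 fold change against the higher of the genotype means (log axis) for protein-coding genes (grey), those with an adjusted p under 0.05 (triangles) and 30 receptor genes (orange). The 6 genes beyond 4.5 on the log2 scale are not drawn. The triangles lie farther from 0 than the receptor genes of the same level, none of which was called.

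Set out by the same ranges, the members below 0 were mostly those with a mean of 1 or more. Of the 8 members under 1, 3 lay below 0, beside 53.1% of protein-coding genes at that level. Of the 17 at 1 to under 5 it was 12 (50.9% of protein-coding genes), of the 6 at 5 to under 20 all 6 (45.5%), and of the 4 at 20 to under 100 it was 3 (42.5%).

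Genes that assemble, traffic or anchor these receptors gave no calls either. Of a list of 65 such genes, related receptor subunits and chloride transporters, 57 were analysed, and 0 passed an adjusted p of 0.05 in either direction in the authors' deposited table. The share called was 0.78% over all genes and 0.344% over protein-coding genes, the type to which all 57 belong. At an unadjusted p under 0.05 there were 2 of 57, both lower, beside 2.17% of all genes, coding or not. In a list of 57 genes, neither count sets these genes apart from the background. Olfm2, a secreted olfactomedin protein found with AMPA receptors, stood at 22.9 in control and 13.4 in the knockout by the authors' deposited table (log2 change -0.75, unadjusted p = 0.00191, adjusted p = 0.213). Cnih2, a cornichon protein that escorts AMPA receptors to the surface and slows their closing, stood at 71.3 and 57.1 by the authors' deposited table (log2 change -0.31, unadjusted p = 0.0196, adjusted p = 0.999987). Of the whole list 45 lay below 0 and 12 above, with a median of -0.13, beside 46.1% below 0 and a median of 0.01 for protein-coding genes. The AMPA auxiliary genes had 14 of 17 below 0 with a median of -0.22, and the scaffolds of glutamate receptors 15 of 20 with a median of -0.09. Scaffold and assembly genes of GABA-A and glycine receptors had 7 of 9 below 0, but their median was close to 0 (-0.009). The medians were -0.07 for GABA-B auxiliary genes (3 of 4 below 0) and 0.005 for chloride transporters (1 of 2). They were -0.35 for kainate auxiliary genes (2 of 2) and -0.20 for other subunits (3 of 3).

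The kainate auxiliary genes Neto1 and Neto2 stood at 4.73 and 33.0 in control and 3.0 and 31.0 in the knockout by the authors' deposited table. The chloride importer gene Slc12a2 was at 21.4 in control and 22.7 in the knockout, and the exporter gene Slc12a5, which sets the inhibitory direction of GABA currents, at 8.67 and 8.07, both by the authors' deposited table. Among glycine receptor genes, relatives of the GABA-A genes outside the family rule, Glra2 stood at 6.61 and 5.70 and Glrb at 5.67 and 5.51, control before Meis2-CKO, in the authors' deposited table.

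Markers of young neurons and of progenitors mostly lay in opposite directions, and their values are given beside those of the receptor genes. Of 8 young-neuron markers 6 lay below 0, none was called, and their summed signal was 1725 in control and 1557 in the knockout. All 7 ventricular-zone progenitor markers lay above 0, none was called, and their sum stood at 1610 and 1821. Pallial glutamatergic markers, which would mark cortical tissue in the dissection, had 6 of 7 above 0 and sums of 151 and 173. Medial eminence interneuron markers had 5 of 5 above 0 and sums of 129 and 133. Endothelial and pericyte markers summed to 50.8 and 52.5, microglial markers to 23.9 and 24.6, and oligodendrocyte lineage markers to 28.2 and 29.2. Meningeal fibroblast markers had 4 of 4 below 0 at sums of 3.29 and 1.45. None of these was called, and 3 of the 4 had both means under 1. The part of cell make-up in the receptor values was not tested.

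Since Meis2 binds DNA, the promoters of the members were read for TGACAG, the core site of MEIS proteins, on either strand (CTGTCA on the other). RefSeq promoters (GRCm38.p6) were matched by symbol for 22 of 35 members, and the 250 bases upstream of each start were searched. Of 28 member windows 5 held the site (17.9%), beside 15.9% of all 32851 windows of that length. The 2 windows of Gabra3 overlap and hold the same site, so the 5 windows held 4 separate sites. The 4 genes concerned were Gabra3, Gabrb2, Grm2 and Grm8, of which 2 lay below 0. The windows of Gabra3 and Grm2 are printed as examples, 1 gene with the higher and 1 with the lower mean in Meis2-CKO, with the site in capitals, for chrX:72656920-72657169 and chr9:106656110-106656359, each on the minus strand.
Gabra3: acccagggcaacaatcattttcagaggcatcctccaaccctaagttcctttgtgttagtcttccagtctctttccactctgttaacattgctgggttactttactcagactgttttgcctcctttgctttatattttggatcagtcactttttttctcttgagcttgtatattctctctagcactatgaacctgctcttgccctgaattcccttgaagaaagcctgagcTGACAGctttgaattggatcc
Grm2: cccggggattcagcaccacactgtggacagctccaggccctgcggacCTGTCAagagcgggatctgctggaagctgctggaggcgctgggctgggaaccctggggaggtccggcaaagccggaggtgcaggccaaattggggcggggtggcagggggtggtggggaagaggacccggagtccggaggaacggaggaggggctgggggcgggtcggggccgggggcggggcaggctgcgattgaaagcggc
A match describes these letters only, not binding, and the share of member windows with a match was near that of all windows.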

How the data were processed

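RNA from LGE of 8 samples (4 control, 4 Meis2-CKO) was sequenced, and 1 table of 16913 genes was analysed. The submitters' processing notes name FastQC 0.11.5, HISAT2 2.1.0, StringTie 1.3.1, GRCm38.p2 and mm10, without roles. The mean expression signal per genotype was averaged by the authors, per the file headers; its unit is not named. The log2 fold change is the authors' deposited value, and so are the p-value and its adjusted form, which equals a Benjamini-Hochberg adjustment over all 16913 genes. The deposited log2 fold change lay 0.0124 above the log2 ratio of the means (median over protein-coding genes whose higher mean reached 5), and the log2 ratio of the column sums, control over Meis2-CKO, was 0.0124. The table's 8 columns of single libraries have names that match no sample label and were not used, so the planned model on single samples, the fits without each replicate and the replicate block were not run.

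Members, partner genes and marker lists were chosen with earlier results of these data known. Members were named if called, if among the 3 highest control means of their class, or if at the largest rise or fall of their class with a mean of at least 1; the others were added after their values were seen so that members are accounted for (the single values of 5 members are not reported here, and counts and medians include them), and Slc12a2, Slc12a5, Neto1, Neto2, Glra2, Glrb, Xist, Eif2s3y and Tmem259 were likewise named outside the rule. Ddx3y, Kdm5d and Uty were also named outside the rule. Gene places and exons came from GENCODE M21 (GRCm38), matched by Ensembl ID for 16861 genes and all 35 members. Alternatives were other adjustments of p, a fold change of at least 1.5, pseudocounts of 1 and 0.1, centring, and other minimum means. The adjustments were tested on simulated data. Python 3.11.15, numpy 2.4.6, pandas 2.3.3 and matplotlib 3.10.9 were used.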

Additional observations from a re-analysis of the deposited data

How the results depend on the processing

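The count of receptor genes called stayed at 0 of 35 under the Benjamini-Yekutieli adjustment, adjustment over protein-coding genes only, a fold change of at least 1.5 and an unadjusted p under 0.05. The count of partner genes called was 0 of 57 under the same alternatives except the unadjusted p, where it was 2. The Benjamini-Yekutieli adjustment and the fold change filter can only remove calls. With 0 called in the main setting, they had to give 0 for both lists. The number of receptor genes below 0 was 24 of 35 with pseudocounts of 1 or 0.1 and after centring. A mean of at least 0.1 kept all 35 receptor genes, so its count of 24 repeats the main one. At a mean of at least 5 the number of receptor genes below 0 was 9 of 10, where fewer genes were counted. Their median log2 fold change was -0.18 at a mean of at least 1, -0.16 with a pseudocount of 1, -0.20 with a pseudocount of 0.1, -0.20 after centring on protein-coding genes, -0.14 at a mean of at least 0.1 and -0.12 at a mean of at least 5. No receptor gene changed sign with either pseudocount or after centring, but these settings could hardly change a sign. The same constant added to both means leaves the larger one larger, and centring moved each gene by only 0.013. The positive log2 fold change nearest 0 was 0.036 (Grm7). No paired analysis was possible because the columns of single libraries carry no replicate number of the labels; leaving out samples was not run for the same reason. With no spread between embryos and no depth, the values give no interval for any receptor gene.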
